A study of Mus musculus with 12 samples.

Results

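The genes described here encode the proteins of the mitochondrial ribosome. They were taken as all symbols of the form Mrps or Mrpl with a number and at most 1 further letter that had at least 50 counts summed over 12 libraries of mouse haematopoietic stem cells (HSCs). All 77 symbols of that form, among 35976 symbols in all, met the minimum, so no symbol lay just below it. The members just inside it were Mrps36 with 130 counts and Mrps11 with 146. By symbol, 29 belong to the small subunit (Mrps) and 48 to the large subunit (Mrpl). The solved mammalian structure places them slightly differently. Mrps18a and Mrps30 sit in the large subunit, and Mrps36 is now known as a part of the alpha-ketoglutarate dehydrogenase complex, which leaves 26 small-subunit and 50 large-subunit proteins.

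The study counted transcript ends by 3′ tag sequencing in cells sorted as Lin- c-Kit+ Sca-1+, in 6 groups of 2 libraries, from animals labelled knockout (KO) for Cd38 or wild type (WT). Cd38 encodes an enzyme that consumes NAD. The groups were young KO and young WT cells stimulated with cytokines outside the body for 24 hours, old fresh KO and old fresh WT cells from animals of 24 months, and young fresh KO and young fresh WT cells from animals of 2 months, the stimulated cells being from young animals too. The comparisons asked how CD38 bears on these cells at rest, during activation and in age. The labels did not say whether the 2 libraries of a group came from separate animals, so the p-values measure the spread between these libraries, which may be technical. Sex-linked genes, given below, show separate animals in young fresh WT.

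Mitochondria keep a small genome that encodes subunits of the respiratory chain and the ribosomal and transfer RNAs. All proteins of their ribosome are encoded in the nucleus, made in the cytosol and imported, and are then assembled on the ribosomal RNAs with the help of GTPases, helicases and RNA-modifying enzymes. The small subunit binds the messenger RNA and decodes it, and the large subunit joins the amino acids. Many of the proteins descend from bacterial ribosomal proteins, and the rest were added in mitochondria. Blood stem cells at rest are known for a low rate of protein synthesis, and mitochondrial activity is known to rise when they are activated.

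Total counts ran between 1600155 and 5164720 per library. The stimulated libraries had 2692245 to 3249721 counts, the old fresh ones 3796591 to 5164720 and the young fresh ones 1600155 to 1963635. Neither age nor stimulation, both set against young fresh cells, can thus be told apart from depth. Between 13163 and 13450 symbols were detected in stimulated libraries, against 9116 to 10231 in fresh ones. Cd38 itself was counted in all libraries, at 3.59 and 2.32 CPM (counts scaled to a common library size) in stimulated KO and 0.998 and 8.58 in stimulated WT, 13.2 and 19.9 in old KO and 74.4 and 41.4 in old WT, and 62.8 and 31.9 in young fresh KO and 17.6 and 24.6 in young fresh WT. A tag at the transcript end can lie outside a deleted part, whose place was not given in the sources used here, so these counts do not check the labels and KO below means labelled KO. Kit, at 191 to 423 CPM, and Ly6a (Sca-1), at 39.3 to 176 CPM, were present in all 12 libraries, and the T cell gene Cd3e had 0 counts in all of them. Young fresh WT replicate 1 had 0 counts of Xist and 200 CPM over Y-linked genes, whereas the other 11 libraries had 198 to 745 CPM of Xist and at most 6.62 CPM over Y-linked genes. Replicate 2 of that group had 729 CPM of Xist and 0 CPM over Y-linked genes, so the 2 libraries came from different animals. Sex was not in the labels, and this group enters the young fresh genotype, stimulation and age comparisons.

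Promoters were read to show the sequence before the most abundant genes of the set. Of the 77 genes, 68 had an entry in RefSeq's promoter table for GRCm38.p6, which gives 250 bases before and 50 bases after a start site. The median GC content of the first listed window was 58.2% over these members and 52.7% over 27025 promoters. For 47 of the 68 the start site of the window was also the start of the gene in RefSeq's gene table. The sequences below are the 120 bases before that start for the 5 of these 47 with the highest mean level in stimulated cells. They are written 5′ to 3′ on the plus strand, where all 5 genes lie, with each CG pair, the site of DNA methylation in mammals, in capitals. They belong to Mrpl33 (chr5:31613831-31613950), Mrps14 (chr1:160195095-160195214), Mrps18c (chr5:100798639-100798758), Mrpl20 (chr4:155802758-155802877) and Mrpl52 (chr14:54426789-54426908). GENCODE gives the same starts for Mrps14, Mrpl20 and Mrpl52, but starts Mrpl33 and Mrps18c further upstream, so that these windows lie inside its gene models. The stretch of Mrpl52 holds 13 CG pairs and that of Mrpl20 holds 4.
Mrpl33: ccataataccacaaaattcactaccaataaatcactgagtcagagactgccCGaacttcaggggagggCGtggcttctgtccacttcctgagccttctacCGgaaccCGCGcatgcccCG
Mrps14: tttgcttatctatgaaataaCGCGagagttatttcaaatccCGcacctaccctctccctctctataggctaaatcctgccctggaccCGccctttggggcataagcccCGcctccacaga
Mrps18c: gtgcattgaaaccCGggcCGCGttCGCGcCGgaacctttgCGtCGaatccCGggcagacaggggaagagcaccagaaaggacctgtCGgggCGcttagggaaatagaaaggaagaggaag
Mrpl20: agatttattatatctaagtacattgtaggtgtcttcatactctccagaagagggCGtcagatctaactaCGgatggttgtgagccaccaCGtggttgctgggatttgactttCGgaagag
Mrpl52: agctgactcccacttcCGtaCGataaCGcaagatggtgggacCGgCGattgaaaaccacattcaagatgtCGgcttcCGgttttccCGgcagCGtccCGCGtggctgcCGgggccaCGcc

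The genes are spread over 17 chromosomes in the GENCODE annotation of GRCm38, most densely on chromosome 11 with 10 members. A head-to-head arrangement was found for 18 of 77 members (23.4%), against 6.79% of 21951 protein-coding genes. In it a protein-coding gene on the other strand starts within 1000 bases upstream of the gene's start and points away. Pairs whose starts overlap, such as Mrps11 and Mrpl46 in GENCODE, were not counted. Mrps12, for example, lies head to head with Sars2, which encodes the mitochondrial seryl-tRNA synthetase, and Mrpl57 with Ska3. Several members overlap other genes in the last 500 bases of their GENCODE gene model, and tags fall near transcript ends. RefSeq ends some members further upstream, Mrpl33 at 31622644 against 31664384 and Mrps34 at 24896289 against 24897502. There the window is not at RefSeq's end of the gene. For 5 members another gene on the same strand overlaps the last 500 bases of the gene: Mrpl33 (Gm43809), Mrps6 (Gm49711), Mrps34 (Nme3), Mrpl2 (Gm26904) and Mrpl53 (Gm42688). For 14 members, Mrpl3, Mrpl12 and Mrps18a among them, a gene on the opposite strand does so. The counting rule for such reads was not given in the sources used here, so the counts of these genes carry that uncertainty, as do those of the members to which 5 named pseudogenes belong.

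All 77 members were read in stimulated cells, and their levels spanned a wide range. A tag count takes about 1 tag per transcript whatever its length, so CPM was compared between genes directly. The mean over the 4 stimulated libraries had a median of 54.35 CPM over members, with 9 members above 100 CPM and 10 below 20 CPM. The small-subunit members had a median of 49.5 CPM and the large-subunit members 57.65 CPM. Mrpl33, a large-subunit protein of bacterial descent, was the most abundant at 250 and 217 CPM in stimulated KO and 311 and 306 CPM in stimulated WT. It was followed by Mrpl18, which binds 5S ribosomal RNA in bacteria, at 188 to 207 CPM, and by Mrpl20, an early-assembling protein in bacteria, at 143 to 175 CPM. Of the small subunit, Mrps14 (155 to 176 CPM), Mrps18c (143 to 190 CPM) and Mrps17 (81.7 to 90.5 CPM) led. Mrps14 and Mrps18c did not separate by their ranges, while Mrps17 lay below both in every stimulated library.

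At the low end stood Mrps18b, at 1.32 to 6.35 CPM in the stimulated libraries, Mrps36 at 1.93 to 8.94 CPM and Mrps11 at 6.35 to 11.3 CPM. Their ranges overlap one another. Of the large subunit Mrpl22 (3.96 to 14.2 CPM), Mrpl38 (9.38 to 16.0 CPM) and Mrpl46 (11.9 to 19.96 CPM) were lowest. Most of the products are known to be single in the particle and Mrpl12 to be present in several copies. Mrpl12, which also binds the mitochondrial RNA polymerase, had 105 and 104 CPM in stimulated KO and 144 and 89.1 CPM in stimulated WT. The proteins that sit in the large subunit under an Mrps symbol differed in level, with Mrps30 at 71.5 to 92.1 CPM and Mrps18a at 9.11 to 20.8 CPM.

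**Figure D1:**
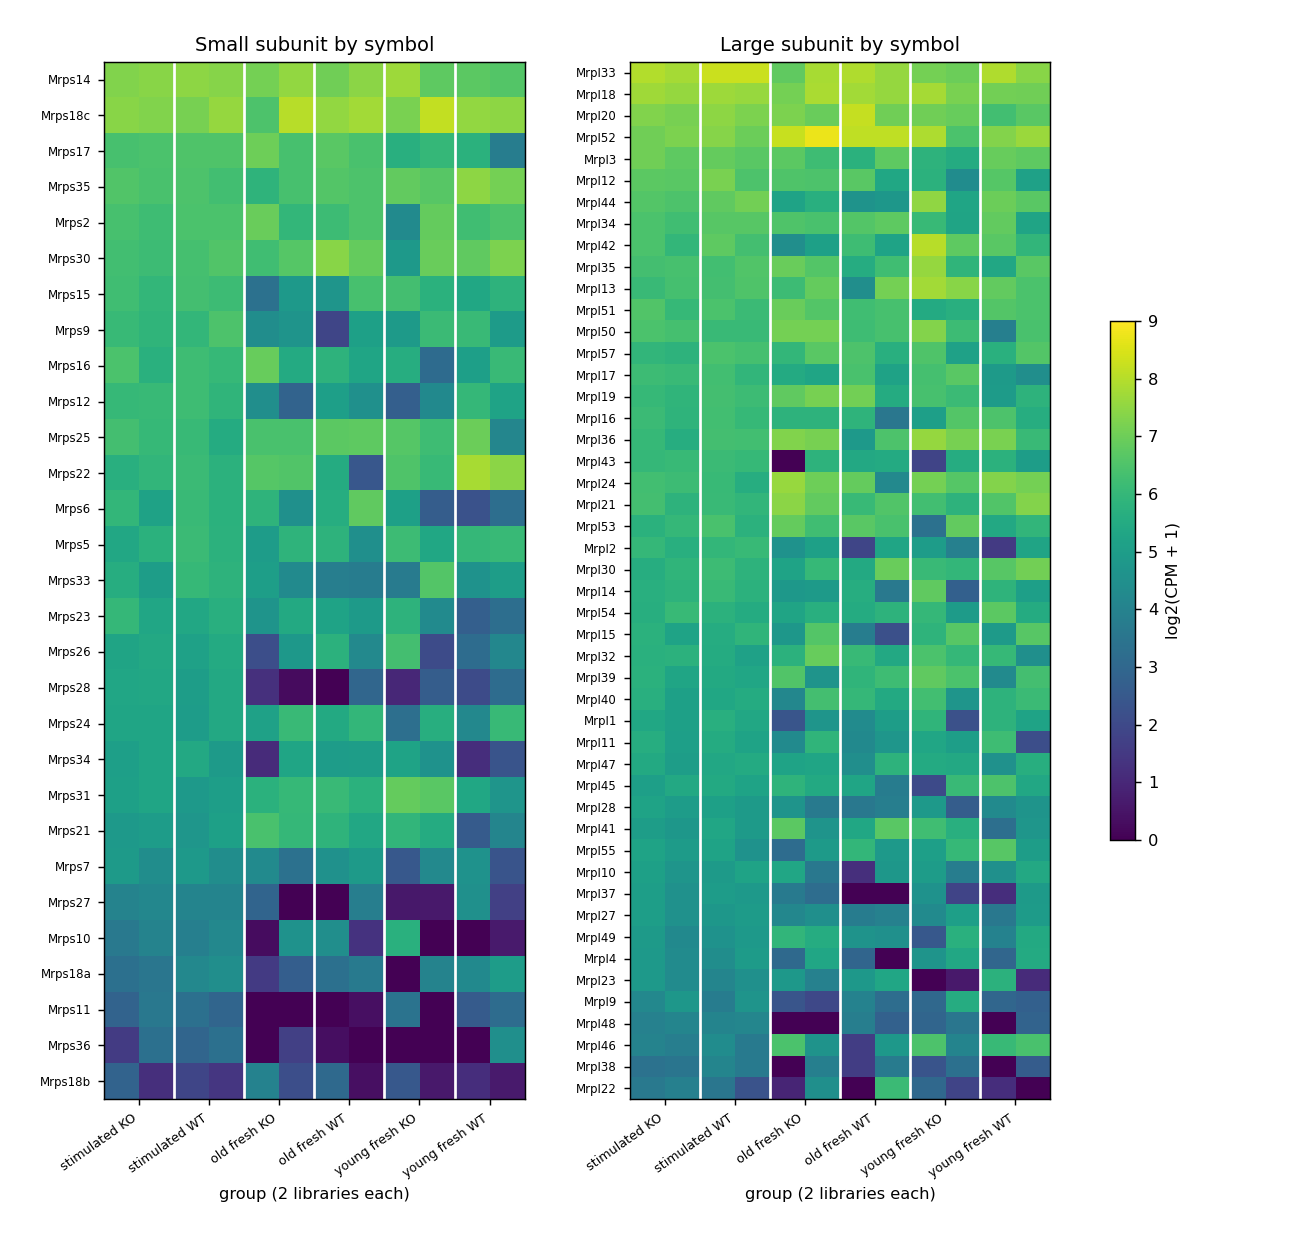
Level of each member, as log2(CPM + 1) by colour, in each of the 12 libraries (columns, 2 per group, groups parted by white lines), with small-subunit symbols on the left and large-subunit symbols on the right, ordered by mean level in stimulated cells. The stimulated columns are smooth from one library to the next, while the fresh columns are patchy, with members at 0 counts in the lower rows.

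The order of the members was much the same in fresh cells. Across the 77 genes the Spearman correlation of the mean fresh level with the mean stimulated level was 0.84, given as a description because the genes share libraries. In fresh cells the highest mean was that of Mrpl52, at 302 and 426 CPM in old KO and 283 and 282 CPM in old WT, and 238 and 86.9 CPM in young fresh KO and 162 and 201 CPM in young fresh WT. Mrpl52 sat at 124 to 162 CPM in stimulated cells. The members never at 0 numbered 64, and 13 had 0 counts in at least 1 library.

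Replicates were close to each other in stimulated cells and far apart in fresh cells. Across members, the Pearson correlation of log2 levels between the 2 libraries of a group was 0.925 in stimulated KO and 0.951 in stimulated WT. It was 0.713 in old fresh KO, 0.648 in old fresh WT, 0.555 in young fresh KO and 0.671 in young fresh WT. Members differed between replicates by a median of 0.26 in stimulated KO, 0.292 in stimulated WT and 0.638 to 1.07 in fresh groups, on the log2 scale. It was much the same over all genes, at 0.297 and 0.298 in stimulated and 0.843 to 0.957 in fresh groups. Each stimulated library had 0 members without counts, and each fresh library had 1 to 5. At the depth of the shallowest library, 1.18 to 6.10 members per fresh library and at most 0.0271 per stimulated library would be read at 0. Mrps10, a small-subunit protein of bacterial descent, shows what this does to 1 gene. It had 11.6 and 15.2 CPM in stimulated KO and 13.6 and 17.5 CPM in stimulated WT, but 0.232 and 23.2 CPM in old KO and 21.0 and 1.501 CPM in old WT, and 52.0 and 0 CPM in young fresh KO and 0 and 0.571 CPM in young fresh WT. Replicates of 1 fresh group thus differed from a clear level to almost none.

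**Figure D2:**
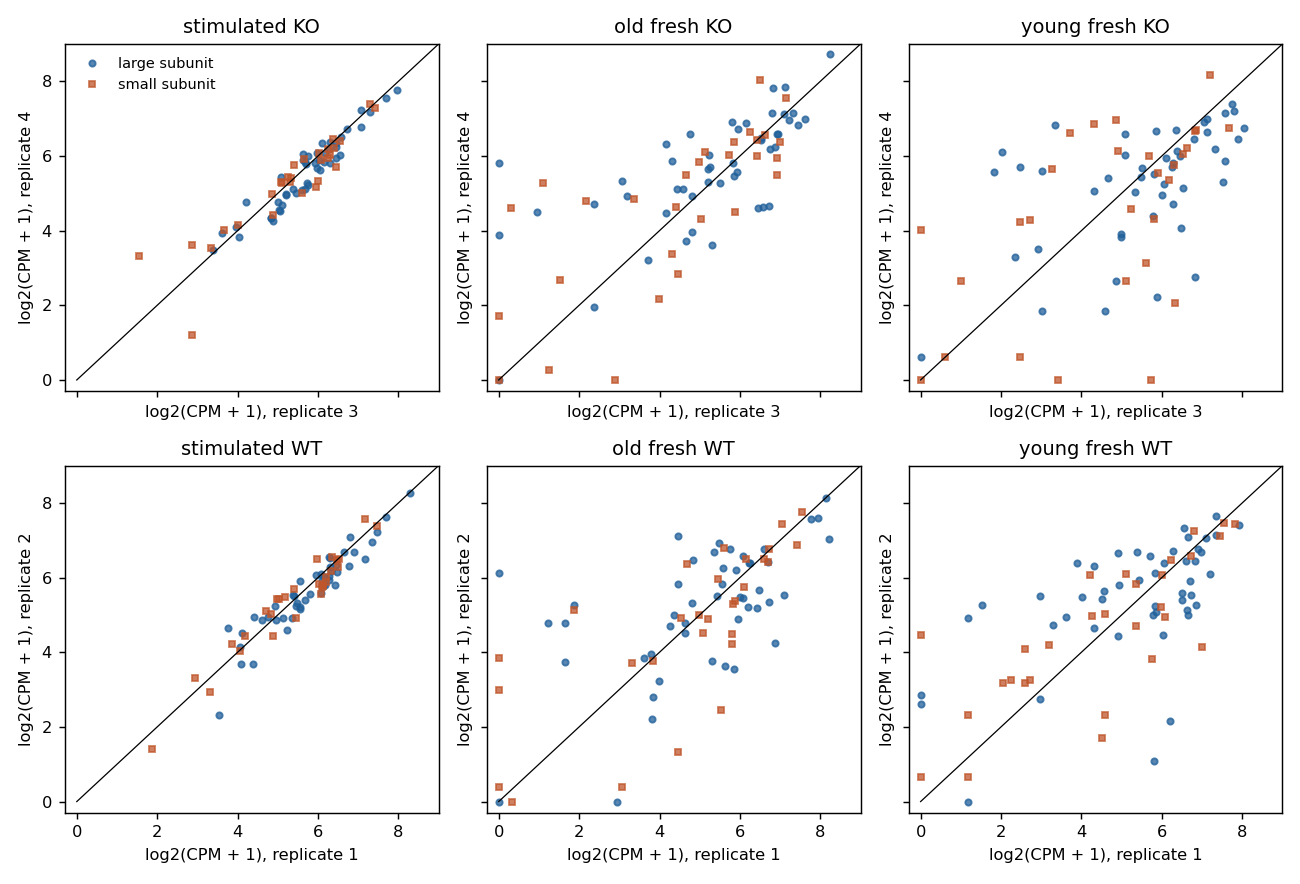
Level of each of the 77 members in 1 replicate against the other, as log2(CPM + 1), with 1 panel per group. Points hug the diagonal in stimulated KO and WT cells (correlations 0.925 and 0.951) and scatter widely in the fresh groups (0.555 to 0.713).

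Scaled by TMM, the members' summed levels overlapped between the groups. The summed level was 4678 and 4275 CPM in stimulated KO and 4984 and 4675 CPM in stimulated WT. It was 4556 and 5054 CPM in old fresh KO and 4470 and 4337 CPM in old fresh WT. It was 5213 and 4217 CPM in young fresh KO and 4607 and 4354 CPM in young fresh WT. The 12 sums thus lay within 4217 and 5213 CPM, and the replicates of young fresh KO alone spanned that whole range. As a plain share of a library's counts, with no TMM scaling, the members held 0.522% and 0.480% in stimulated KO and 0.5365% and 0.5055% in stimulated WT. They held 0.417% and 0.473% in old fresh KO and 0.404% and 0.381% in old fresh WT, and 0.520% and 0.419% in young fresh KO and 0.459% and 0.435% in young fresh WT. On that scale all stimulated libraries lay above all old ones, and the young fresh ones overlapped both. In bulk cells a change in the RNA of every cell and a change in the share of cells of a kind cannot be told apart.

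Between the subunits, the share of the small one was lower in both old KO than in both old WT libraries. The small-subunit symbols made up 33.7% and 34.4% of the members' sum in stimulated KO and 32.4% and 34.5% in stimulated WT. They made up 29.1% and 29.6% in old KO, against 33.3% and 34.5% in old WT. In young fresh cells the share was 27.9% and 35.8% in KO and 32.4% and 31.2% in WT. Old KO and old WT libraries did not overlap, but the replicates of young fresh KO differed by more than the old groups did, and a score over members was not tested. The ratio of small to large was 0.415 in old KO and 0.513 in old WT by symbol, 0.378 in old KO and 0.438 in old WT by structure, and 0.408 in old KO and 0.492 in old WT without the most abundant member of each subunit.

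**Figure D3:**
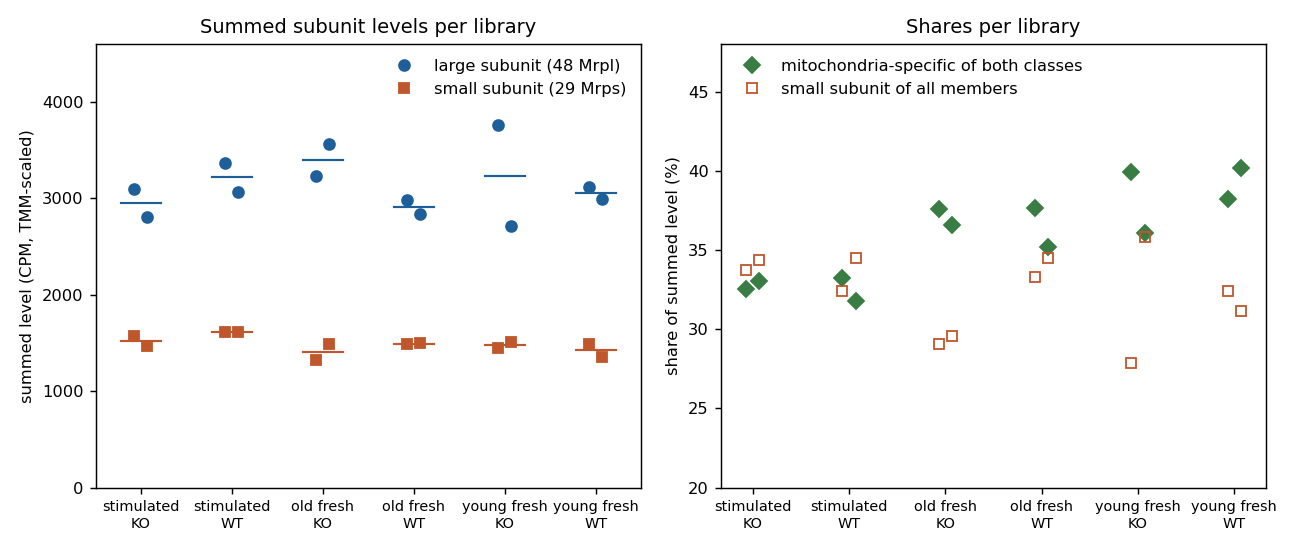
Left, summed level of the small-subunit and large-subunit symbols in CPM by library (points) with the group mean (bar), and right, the small-subunit share of their sum (open squares) and the share of mitochondria-specific members in the sum of both classes of descent (diamonds) in percent by library. The small-subunit share of old KO sits at 29.1% and 29.6% against 33.3% and 34.5% in old WT, and young fresh KO spans 27.9% to 35.8%.

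A second split was by descent, after the universal names of the proteins, 46 with a bacterial counterpart and 30 named as mitochondria-specific, Mrps36 having no such name. The mitochondria-specific members held a smaller share of the sum in stimulated than in fresh cells. Their share was 32.5% and 33.1% in stimulated KO and 33.3% and 31.8% in stimulated WT, against 39.9% and 36.1% in young fresh KO and 38.2% and 40.2% in young fresh WT. In old fresh cells it was 37.6% and 36.6% in KO and 37.7% and 35.2% in WT. All 4 stimulated libraries thus lay below all 8 fresh ones. Without Mrpl33 and Mrpl52, the most abundant member of each class, stimulated libraries held 32.1% to 33.1% and young fresh ones 35.9% to 38.8%, while the old ones, at 32.2% to 35.5%, overlapped the stimulated. This split was chosen after earlier results were known and was not tested.

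In stimulated cells, where the measurement is tightest, no member differed between KO and WT by edgeR's quasi-likelihood test at a Benjamini-Hochberg adjusted p under 0.05. Of 76 members tested, 0 were called, against 1.23% of 10494 genes. DESeq2 called 0 members too, against 1.23% of genes, as did limma voom when each group had its own weight, against 1.97%. Shares by DESeq2 are of the genes to which it gave an adjusted p. At an unadjusted p under 0.05 there were 5 members (6.58%), all lower in KO, against 10.9% of all genes. The median log2 fold change was -0.07 over members and 0.00 over all genes, with 47 of 76 members below 0, made up of 33 of 48 large-subunit and 14 of 28 small-subunit members. Both KO libraries lay below both WT libraries for 14 members, where 22.6% of all genes did so, and above them for 5 members, where 19.5% of all genes did so. The 95% interval of the fold change lay within 2-fold in both directions for 67 of 76 members (88.2%), against 56.5% of all genes, most of the other tested members being those of low level such as Mrps36, Mrps11, Mrpl38, Mrpl22 and Mrps10. Mrps18b was too low to be tested.

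The 5 members with the smallest p were all lower in KO. Mrpl33 had 250 and 217 CPM in stimulated KO, against 311 and 306 CPM in stimulated WT, a log2 fold change of -0.38 ± 0.14 (SE; 95% interval -0.67 to -0.09; adjusted p = 0.264). Mrpl57, a mitochondria-specific large-subunit protein, had 59.3 and 55.0 CPM in KO and 86.5 and 80.6 CPM in WT, a log2 fold change of -0.52 ± 0.19 (adjusted p = 0.275). Mrpl44, related to the ribonuclease III family, had 94.4 and 89.8 CPM in KO and 111 and 135 CPM in WT (-0.39 ± 0.17, adjusted p = 0.412). Mrps18a had 9.11 and 10.6 CPM in KO and 17.3 and 20.8 CPM in WT (-0.93 ± 0.38, 95% interval -1.75 to -0.11, adjusted p = 0.369). Mrps33, a mitochondria-specific protein of the small subunit, had 47.2 and 31.5 CPM in KO and 63.9 and 55.5 CPM in WT (-0.57 ± 0.24, 95% interval -1.09 to -0.05, adjusted p = 0.381). The intervals of Mrps18a and Mrps33 thus reached beyond 2-fold. KO and WT libraries did not overlap for any of the 5, and none passed the test.

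**Figure D4:**
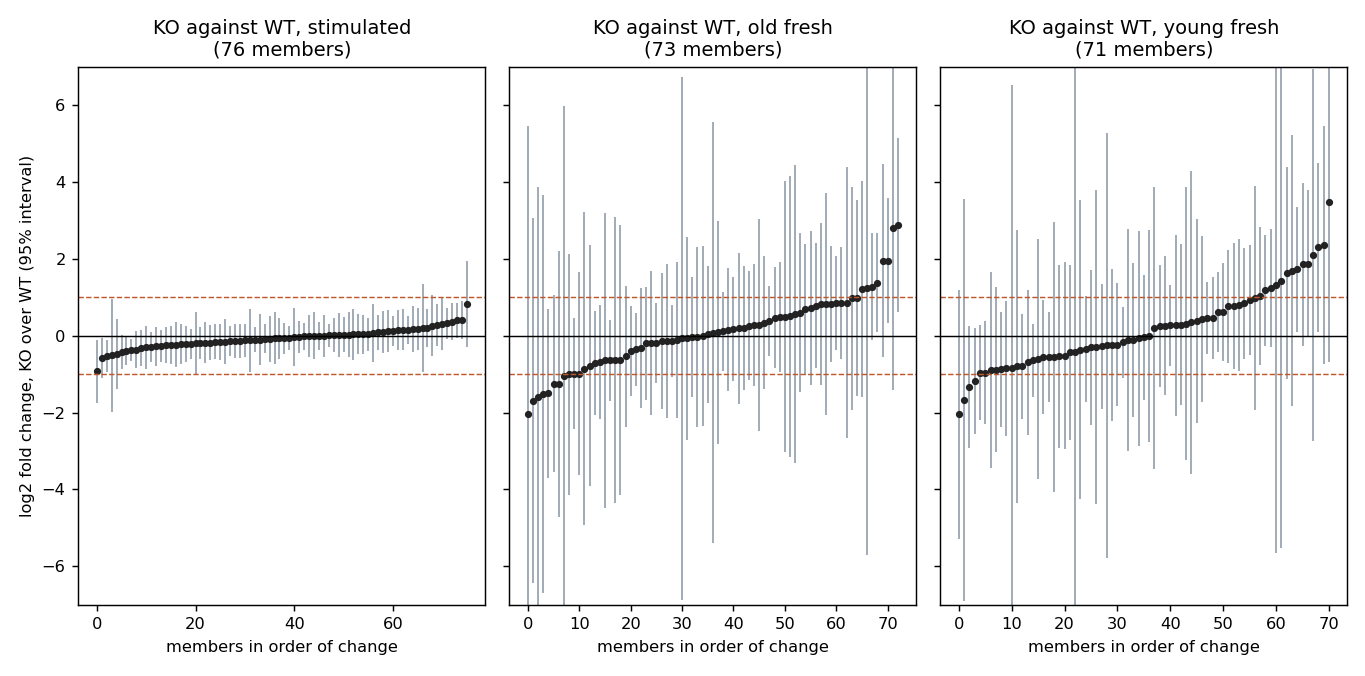
Log2 fold change of KO over WT with its 95% interval for each member, ordered by size, in stimulated, old fresh and young fresh cells, with dashed lines at 2-fold in each direction. The axis ends at 7 in both directions, intervals that pass it are cut there, and members with 3 or fewer counts in a group are left out. The stimulated intervals have a median width of 1.00 and the fresh ones of 4.18 in old and 4.26 in young cells.

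No member was called by edgeR between old KO and old WT cells, nor between young KO and young WT cells, and 0% of 10680 genes were called in either comparison. DESeq2 also called 0 members in both, against 1.14% of genes in old and 1.63% in young cells, as did voom, against 0.0173% in old and 0% in young cells. At an unadjusted p under 0.05 there were 4 members in old cells, all higher in KO, where 4.01% of all genes passed. In young cells there were 3 members, where 4.86% of all genes passed. For 0 of 76 members did the 95% interval stay within 2-fold in either age, so a 2-fold difference between the genotypes was not excluded for any member.

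In old cells the 5 smallest p-values were those of Mrpl15, Mrps22, Mrpl36, Mrpl37 and Mrpl48. Mrpl15, a bacterial-type large-subunit protein, had 26.0 and 95.8 CPM in old KO, against 13.0 and 3.60 CPM in old WT (log2 fold change 2.88 ± 1.08, adjusted p = 1.000). Mrps22, a mitochondria-specific small-subunit protein, had 97.1 and 93.1 CPM in old KO, against 44.9 and 4.50 CPM in old WT (1.96 ± 0.77, adjusted p = 1.000). The KO libraries were close to each other for Mrps22 and the WT libraries were not. Without old WT replicate 1, the log2 fold change of Mrps22 was 4.39 with an adjusted p = 0.0122, so it then rested on the 4.50 CPM of the remaining WT library. Mrpl36, the smallest type of large-subunit protein in bacteria, had 158 and 142 CPM in old KO, against 27.6 and 88.3 CPM in old WT (1.38 ± 0.61, adjusted p = 1.000). Mrpl37 had 12.1 and 8.28 CPM in old KO, 92 counts in all, against 0 counts in old WT, which makes it at least 23.8-fold higher in KO if 3 counts are set for the WT group. Mrpl48 had 0 counts in both old KO libraries, against 70 counts in old WT at 13.3 and 6.004 CPM, which makes it at least 30.1-fold lower in KO on the same footing. Such bounds cover counting error only, and other fresh groups lost members as completely in 1 replicate.

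In young fresh cells the 5 members were Mrpl23, Mrps31, Mrps21, Mrpl17 and Mrps10. Mrpl23, near the exit of the peptide tunnel, had 0 and 0.523 CPM in young fresh KO, a single count, against 54.6 and 1.14 CPM in young fresh WT, 89 counts, a ratio of 103 with a 95% counting interval of 18 to 4110. The WT replicates differed by about as much as the groups. Mrps31, a mitochondria-specific small-subunit protein, had 115 and 103 CPM in KO, against 40.1 and 25.1 CPM in WT (1.73 ± 0.78, adjusted p = 0.961). Mrps21 had 59.2 and 45.5 CPM in KO, against 5.02 and 16.0 CPM in WT (2.30 ± 1.05, adjusted p = 0.961). Mrpl17 had 80.1 and 103 CPM in KO, against 28.9 and 20.6 CPM in WT (1.88 ± 0.91, adjusted p = 0.961). These 3 were among 16 of 76 members with both KO libraries above both WT libraries, where 14.7% of all genes did so. In stimulated cells Mrps31 had 33.7 and 37.8 CPM in KO and 27.6 and 31.7 CPM in WT, again without overlap. Mrps21, at 28.1 and 30.8 CPM in KO and 25.3 and 33.7 CPM in WT, and Mrpl17, at 71.8 and 66.9 CPM in KO and 76.8 and 60.1 CPM in WT, overlapped there. For Mrps10 the young KO group had 102 counts and the WT group 1, but the KO counts came from a single library.

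The difference of the KO effect between stimulated and fresh young cells was tested directly. Of 77 members, 0 were called by edgeR, and 0% of 11548 genes were. DESeq2 called 0 members, against 0.321% of genes, and voom 0, against 0%. An unadjusted p under 0.05 was found for 2 members (2.60%), against 5% of all genes. The smallest p-values were those of Mrpl23, Mrpl17 (log2 difference -1.87 ± 0.85) and Mrps21 (-2.31 ± 1.11), with an adjusted p = 0.885 each. The difference of the KO effect between old and young fresh cells likewise gave 0 of 76 members, against 0% of 10680 genes, with 0 by DESeq2, against 1.13%, 0 by voom, against 0%, and 3 (3.95%) at an unadjusted p under 0.05, against 5.50% of all genes. These were Mrps22 (3.30 ± 1.08), Mrpl42 (-2.17 ± 0.98) and Mrpl21 (1.81 ± 0.83), with an adjusted p = 0.902 each.

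Cytokine stimulation was set against fresh young cells over both genotypes. Of 77 members 0 were called by edgeR, against 2.81% of 11548 genes. DESeq2 called 1, Mrps6, against 7.54% of genes, and voom called 1, Mrps22, against 6.17%. At an unadjusted p under 0.05 there were 12 members (15.6%), 8 higher and 4 lower in stimulated cells, against 17.7% of all genes. The median log2 fold change was 0.23 over members and 0.27 over all genes, with 0.50 over small-subunit and 0.07 over large-subunit symbols. All 4 stimulated libraries lay above all 4 young fresh ones for 9 members, where 14.6% of all genes did so, and below them for 2 members, where 5.16% did so. The interval stayed within 2-fold in both directions for 8 members: Mrpl57, Mrpl44, Mrpl51, Mrpl50, Mrps14, Mrps18c, Mrpl18 and Mrpl52.

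Mrps6, a small-subunit protein of bacterial descent, had the smallest p. It had 61.3 and 35.1 CPM in stimulated KO and 67.9 and 53.1 CPM in stimulated WT, against 33.7 and 5.24 CPM in young fresh KO and 3.76 and 8.57 CPM in young fresh WT. The groups did not overlap, and the log2 fold change was 2.29 ± 0.69 (95% interval 0.82 to 3.77, adjusted p = 0.105 by edgeR and 0.0164 by DESeq2). Mrpl33 had 250, 217, 311 and 306 CPM in the stimulated libraries named above, against 138 and 126 CPM in young fresh KO and 240 and 168 CPM in young fresh WT (0.71 ± 0.24, adjusted p = 0.162), with an overlap between stimulated KO and fresh WT. Mrpl12 had 89.1 to 144 CPM in stimulated cells, against 54.1 and 19.9 CPM in young fresh KO and 97.8 and 34.3 CPM in young fresh WT (1.16 ± 0.45, adjusted p = 0.204). Mrpl36 had 64.8 and 48.02 CPM in stimulated KO and 78.2 and 76.9 CPM in stimulated WT, against 190 and 141 CPM in young fresh KO and 146 and 68.0 CPM in young fresh WT (-1.01 ± 0.38, adjusted p = 0.189). Mrpl46, a mitochondria-specific large-subunit protein, had 11.9 to 19.96 CPM in stimulated cells, against 88.8 and 15.7 CPM in young fresh KO and 65.8 and 83.4 CPM in young fresh WT (-2.04 ± 0.81, adjusted p = 0.207). Of these, only Mrps6 kept all stimulated libraries on 1 side.

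A member named after its values were seen is Mrps28, of the small subunit. It had 39.5 and 41.4 CPM in stimulated KO and 31.6 and 42.3 CPM in stimulated WT. It had 1.39 and 0.207 CPM in old fresh KO and 0 and 6.91 CPM in old fresh WT, and 1.02 and 5.24 CPM in young fresh KO and 3.14 and 7.997 CPM in young fresh WT. All 8 fresh libraries lay below all 4 stimulated ones, and the share of all genes that did so was not taken. The log2 fold change of stimulated over young fresh cells was 3.20 ± 1.32 (adjusted p = 0.226). Others of the 9 members above and 2 below also separated stimulated from young fresh cells. Mrps17 had 81.7 to 90.5 CPM in stimulated and 13.1 to 63.4 CPM in young fresh cells. Mrps35 had 76.6 to 92.7 CPM in stimulated and 101 to 174 CPM in young fresh cells. Mrpl24 had 47.2 to 76.2 CPM in stimulated and 98.4 to 162 CPM in young fresh cells. Mrps35 and Mrpl24 were also named after their values were seen. Mrpl2, Mrpl20, Mrpl28, Mrpl38, Mrpl43 and Mrpl48 lay above as well. Of all genes, 14.6% lay above in this way and 5.16% below. Among the alternatives run, Mrps17 passed edgeR's test in the stimulation comparison only when young fresh WT replicate 1, the library without Xist, was left out.

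Within each genotype the stimulation comparison also gave 0 members by edgeR, against 0.649% of genes in KO and 0.797% in WT. At an unadjusted p under 0.05 there were 9 members in KO (11.7%), against 10.9% of all genes, and 8 in WT (10.4%), against 9.48% of all genes. DESeq2 called Mrpl23 in KO, against 4.29% of genes, and Mrps6 in WT, against 3.82%. Voom called 0 members in KO, against 1.04% of genes, and 1 in WT, against 2.25%. In KO the smallest p-values after that of Mrpl23 were those of Mrpl36 (-1.55 ± 0.54), Mrpl3 (1.27 ± 0.46), Mrps31 (-1.61 ± 0.60) and Mrps12 (2.44 ± 0.91). Mrpl3, near the peptidyl transferase centre, had 133 and 108 CPM in stimulated KO, against 55.1 and 45.0 CPM in young fresh KO. Mrps12, which helps decoding and carries the streptomycin site in bacteria, had 63.8 and 66.2 CPM in stimulated KO, against 5.61 and 18.3 CPM in young fresh KO. In WT they were Mrps6 (3.28 ± 1.02), Mrps23 (2.68 ± 0.93), Mrps34 (3.74 ± 1.44), Mrps17 (1.46 ± 0.59) and Mrpl17 (1.47 ± 0.61). Mrps23, a mitochondria-specific protein, had 41.2 and 50.5 CPM in stimulated WT, against 5.64 and 8.57 CPM in young fresh WT. Mrps34, needed for the stability of the small subunit, had 42.6 and 29.1 CPM in stimulated WT, against 1.25 and 4.00 CPM in young fresh WT, and its tags may include Nme3. Both WT fresh libraries were low for these genes, while the fresh KO libraries had 55.1 and 18.9 CPM of Mrps23 and 36.7 and 23.0 CPM of Mrps34.

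**Figure D5:**
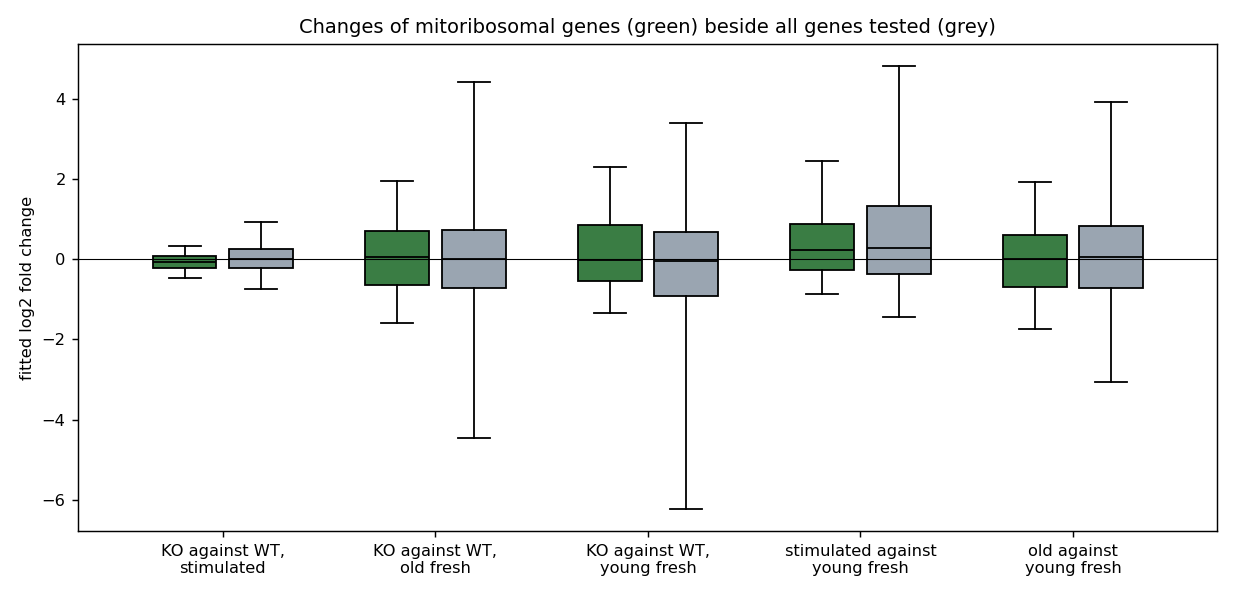
Distribution of fitted log2 fold changes over the members (green) beside all genes tested (grey), for 5 comparisons, with boxes over the quartiles, the median as a line and whiskers to the 5th and 95th percentiles. In stimulated over young fresh cells the median was 0.23 over members beside 0.27 over all genes, and in stimulated KO over WT -0.07 beside 0.00.

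Old cells were set against young fresh cells over both genotypes. Of 76 members 0 were called by edgeR, against 2.72% of 10680 genes. DESeq2 called 4 (Mrpl42, Mrpl44, Mrpl52 and Mrps6), against 8.76% of genes, and voom 0, against 2.2%. At an unadjusted p under 0.05 there were 9 members (11.8%), 4 higher and 5 lower in old cells, against 13.2% of all genes. The median log2 fold change was 0.00 over members and 0.05 over all genes. All old libraries lay above all young fresh ones for Mrps17 and Mrpl52, where 4.83% of all genes did so, and below them for Mrps35 alone, where 3.60% did so. The interval stayed within 2-fold in both directions for 3 members, Mrps18c, Mrpl18 and Mrpl33, all among the most abundant.

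Mrpl42, a mitochondria-specific large-subunit protein, had the smallest p, at 20.6 and 33.9 CPM in old KO and 73.1 and 36.3 CPM in old WT, against 262 and 107 CPM in young fresh KO and 102 and 59.4 CPM in young fresh WT (-1.67 ± 0.50, adjusted p = 0.0891). The ages overlapped in WT and not in KO. Mrpl44 had 36.1 and 49.6 CPM in old KO and 23.9 and 26.4 CPM in old WT, against 182 and 38.2 CPM in young fresh KO and 124 and 102 CPM in young fresh WT (-1.77 ± 0.56, adjusted p = 0.121). Mrpl52, whose values in every library stand above, was higher in all 4 old than in all 4 young fresh libraries (0.89 ± 0.31, adjusted p = 0.177). Mrps22 had 97.1 and 93.1 CPM in old KO and 44.9 and 4.50 CPM in old WT, against 91.9 and 66.0 CPM in young fresh KO and 224 and 172 CPM in young fresh WT (-1.38 ± 0.54, adjusted p = 0.251). Mrps6 had 57.5 and 21.7 CPM in old KO and 47.8 and 110 CPM in old WT, against the low young fresh values given above (2.34 ± 0.94, adjusted p = 0.263).

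Within KO, age gave 0 members by edgeR, against 0.871% of genes, with 3 (3.95%) at an unadjusted p under 0.05, against 8.74% of all genes. DESeq2 called 2 (Mrpl23 and Mrpl42), against 6.16% of genes, and voom 0, against 0.364%. Mrpl42 led with a log2 fold change of -2.75 ± 0.73 (adjusted p = 0.0982), and it passed edgeR's test when young fresh WT replicate 1 (adjusted p = 0.0255), young fresh WT replicate 2 (0.0145), young fresh KO replicate 4 (0.00538), old WT replicate 1 (0.0156) or old WT replicate 2 (0.0116) was left out. Without young fresh KO replicate 3 Mrpl52 passed instead, so a member was called in 6 of 8 such fits. The share of all genes called in those fits was not taken. In the main fit Mrpl42 was followed by Mrpl52 (1.17 ± 0.44) and by Mrpl23. Mrpl23 had 187 counts in old KO and 1 in young fresh KO, a ratio of 79.1 (95% counting interval 14.0 to 3140). Mrpl48 had 0 counts in old KO and 33 in young fresh KO, at least 26-fold lower with 3 counts set for the old group. Mrpl21, a bacterial-type large-subunit protein, had 172 and 114 CPM in old KO, against 76.0 and 55.0 CPM in young fresh KO (1.13 ± 0.59, adjusted p = 0.627).

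Within WT, age gave 0 members by edgeR, against 0.805% of genes, with 7 (9.21%) at an unadjusted p under 0.05, against 8.14% of all genes. DESeq2 called 5 (Mrpl15, Mrpl37, Mrpl44, Mrps22 and Mrps6), against 5.50% of genes, and voom 0, against 0.598%. Mrps22 led at -3.02 ± 0.81 (adjusted p = 0.103), with 44.9 and 4.50 CPM in old WT, against 224 and 172 CPM in young fresh WT. It passed the test in 6 of the 8 fits that left out 1 library. The share of all genes called in those fits was not taken. The other 4 members with the smallest p in the main fit were Mrpl15 (-2.96 ± 1.09), Mrpl44 (-2.19 ± 0.81), Mrps6 (3.65 ± 1.41) and Mrpl20 (1.21 ± 0.51). Mrpl20 had 295 and 131 CPM in old WT, against 77.1 and 104 CPM in young fresh WT, while in KO it had 148 and 123 CPM in old and 132 and 120 CPM in young fresh cells. The old and young fresh WT libraries did not overlap for any of these 5 genes. Over all members, old WT lay above young fresh WT without overlap for 17 of 76, where 20.1% of all genes did so, and below it for 18, where 18.8% did so.

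Proteins of the mitochondrial ribosome with other names were read beside the members. Of 7 listed, 6 were in the files under those symbols, and 0 were called in any comparison by edgeR, where at most 2.81% of all genes were. The symbol not found, Mrp63, is another name of Mrpl57, which is among the members. Chchd1, of the small subunit, had 201 and 151 CPM in stimulated KO and 232 and 192 CPM in stimulated WT, against 163 and 126 CPM in young fresh KO and 160 and 175 CPM in young fresh WT. Dap3, a GTP-binding small-subunit protein, had 50.5 to 75.5 CPM in stimulated and 6.12 to 85.9 CPM in young fresh libraries.

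Genes that work with this ribosome changed in a few cases. Over all genes tested, edgeR called 2.81% with stimulation and 2.72% with age. Of 17 translation factors and messenger RNA partners, 1 rose with stimulation. It was Lrpprc, which stabilises mitochondrial messenger RNA, at 272 and 226 CPM in stimulated KO and 282 and 217 CPM in stimulated WT, against 65.8 and 97.9 CPM in young fresh KO and 121 and 122 CPM in young fresh WT (1.32 ± 0.26, adjusted p = 0.0117 by edgeR). Of 34 assembly factors and of 21 mitochondrial tRNA synthetases, 1 rose, and it was the same gene on both lists, Lars2, the leucyl-tRNA synthetase, at 415 and 790 CPM in stimulated KO and 543 and 358 CPM in stimulated WT, against 190 and 160 CPM in young fresh KO and 388 and 284 CPM in young fresh WT (1.11 ± 0.26, adjusted p = 0.029). Lars2 was lower in old than in young fresh cells, at 96.6 and 110 CPM in old KO and 68.3 and 118 CPM in old WT (-1.31 ± 0.32, adjusted p = 0.0281). Part of its 3′ sequence is known as a near copy of mitochondrial ribosomal RNA, so its tags are uncertain. Of the genes of mitochondrial DNA expression, 0 of 16 tested were called with stimulation and 0 of 15 with age.

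Of 13 regulators tested, 2 fell with stimulation, Mycn, a MYC family factor, at 102 and 66.6 CPM in stimulated KO and 41.2 and 29.4 CPM in stimulated WT, against 287 and 149 CPM in young fresh KO and 155 and 179 CPM in young fresh WT (-1.80 ± 0.29, adjusted p = 0.00314), and Max, its partner (-0.98 ± 0.16, adjusted p = 0.00339). Mycn was also higher in stimulated KO than in stimulated WT (1.28 ± 0.25, adjusted p = 0.0209), and Max was higher in old than in young fresh cells (1.28 ± 0.20, adjusted p = 0.000897). Of 11 genes encoded by mitochondrial DNA that were tested, 4 fell with stimulation, ND2 by 1.09, CYTB by 0.88, ND5 by 0.70 and ND4 by 0.61 on the log2 scale. With age 1 fell, ND1 (-0.51 ± 0.11, adjusted p = 0.0105). Summed over the mitochondrial genes, stimulated KO had 26580 and 26520 CPM and stimulated WT 27260 and 29410 CPM. Young fresh KO had 38690 and 43000 CPM and young fresh WT 43550 and 42090 CPM, with no overlap with the stimulated libraries. Old fresh KO had 32740 and 28760 CPM and old fresh WT 41490 and 39960 CPM, so old KO overlapped stimulated WT. Cytosolic ribosomal proteins, the counterpart in the cytosol, had 6 of 86 higher and 20 lower with stimulation, and 29 higher and 8 lower with age. Over all genes tested, 2.81% were called with stimulation, 2.72% with age and 1.23% between stimulated KO and WT.

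Markers of other cells moved with the same contrasts. The summed level of 8 myeloid markers was 771 to 963 CPM in stimulated KO and 914 to 1504 CPM in stimulated WT, 1009 to 3113 CPM in old fresh KO and 367 to 1251 CPM in old fresh WT, and 4941 to 6580 CPM in young fresh KO and 5202 to 9486 CPM in young fresh WT. S100a8, S100a9, Ngp and Camp, granule and calcium-binding proteins of neutrophils, fell with both stimulation and age. They were 4 of 7 myeloid markers tested with stimulation and 4 of 6 tested with age, and 0 were called higher. Csf1r had 0 counts in all 8 fresh libraries and 4.3 to 10.9 CPM in stimulated ones. Itgam had 18.2 to 42.3 CPM in stimulated and 0 to 41.9 CPM in young fresh libraries. Ly6g had 0 counts in 11 of 12 libraries. The T cell list summed to at most 1.66 CPM in any library, the B cell list to at most 59.8 CPM, and the stromal and endothelial list to at most 72.3 CPM. The 4 megakaryocyte markers summed to 444 and 481 CPM in stimulated KO and 252 and 144 CPM in stimulated WT. They summed to 2315 and 1391 CPM in old KO and 554 and 360 CPM in old WT. In young fresh cells KO (325 and 607 CPM) and WT (362 and 244.5 CPM) overlapped. Pf4 made up most of the sum in every library, at 2078 and 1232 CPM in old KO. Of 3 markers tested, edgeR called only Pf4 as higher in stimulated KO than in stimulated WT (1.39 ± 0.21, adjusted p = 0.00476). Of 4 tested with age, only Pf4 was called, as higher (1.33 ± 0.28, adjusted p = 0.0113). The others had log2 fold changes with age of 1.76 (Itga2b), -4.93 (Gp1ba) and 0.27 (Gp9). Within genotypes, 1 of the 4 was called higher with age in KO and 0 in WT. A list of 12 stem and progenitor cell genes held Kit and Ly6a of the sorting gate and others outside it. Of the 12, 3 fell with stimulation (Myct1, Hlf and Meis1) and 2 with age (Cd34 and Hlf). Between stimulated KO and WT 2 were higher in KO (Myct1 and Mecom) and 1 lower (Cd34). The shares of all genes called were 2.81% with stimulation, 2.72% with age and 1.23% between stimulated KO and WT. The part of these shifts in the members' levels was not tested.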

How the data were processed

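The deposited values were unnormalised counts of reads by gene symbol, with a file for each library of the QuantSeq 3′ FWD kit, per the labels' protocols. Per the submitters' processing notes, the authors used the tools HTSeq 0.9.1 and HISAT2 2.2.1 and the build mm10. Neither strand setting nor annotation was given in the sources used here. Tests ran in edgeR 4.0.16 under R 4.3.3, with limma 3.58.1 for voom and DESeq2 1.42.0 as alternatives, after TMM scaling and filterByExpr (minimum count 10, minimum total 15). KO against WT in stimulated cells was fitted on the 4 stimulated libraries, fresh contrasts on 8 libraries, and stimulation on all 12, because replicates vary more in fresh cells. P-values were adjusted over all genes of a contrast at a threshold of 0.05. CPM used TMM sizes over 12 libraries.

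The members, gene lists and tests were chosen with earlier results of these data known. The rule named the 5 members with the smallest p per contrast (3 per interaction), the highest and lowest of each subunit, and members whose symbol and place in the structure differ. Where a group had 0 counts, a bound used 3 counts over the group, and with 1 to 3 counts an exact conditional interval was given. Both cover counting error only. Replicate numbers 3 and 4 in KO and 1 and 2 in WT recur across states, but same-numbered libraries did not deviate together (correlations between -0.0132 and 0.0118 over 11548 genes), so they were not treated as pairs. The fits were also run on simulated counts with known changes, whose outcome is not given here. Their spread followed level within each group and was not set gene by gene, so the run cannot vouch for fits to these data. Alternatives were RLE scaling, no filter, DESeq2, voom, other sets of libraries, a replicate block and each library left out. Promoters came from RefSeq (GRCm38.p6) and gene positions from GENCODE M21.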

Additional observations from a re-analysis of the deposited data

How the results depend on the processing

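The members' intervals between genotypes had a median width of 4.18 in old and 4.26 in young fresh cells, against 1.00 in stimulated cells, so 0 members by edgeR does not show that the fresh groups are alike. The old libraries were the deepest, and their replicates correlated at 0.713 in KO and 0.648 in WT across members. All 659 alternative values of 50 results kept their sign, and 44 passed the threshold in an alternative. These results were the members with the smallest p in the main fit and the mitochondria-specific shares of the 6 groups. A share cannot change sign, and members with 3 or fewer counts in a group were left out. The kept signs are thus no independent check. RLE scaling left every count of called members at 0. Without a filter, 1 member was called with age over both genotypes (Mrpl42), 1 within WT (Mrps22), 1 within KO (Mrpl42) and 1 with stimulation (Mrps6). DESeq2 called 4, 5 and 2 members with age over both genotypes, within WT and within KO, and 1 in each stimulation comparison. Voom called 1 with stimulation over both genotypes and 1 within WT (Mrps22). With all 12 libraries in the fit, 2 members were called with age (Mrpl42 and Mrpl44) and 1 within KO, and on the 8 young libraries alone 1 with stimulation (Mrps22). The cause was not tested. The share of all genes called was taken only for the main fit, DESeq2 and voom.

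A replicate block called 1 member with stimulation (Mrps6, log2 fold change 2.58), 2 with age (Mrpl52 and Mrps22), 1 with age within WT (Mrps22) and 0 with genotype by age, by stimulation and in the other comparisons. The share of all genes called was not taken in these fits or in those that left out a library. Whether members were called more often than other genes there was not tested. Leaving out each library in turn, counts ran between 0 and 4 with age over both genotypes (above 0 in 5 of 8 fits), 0 and 2 within WT (6 of 8), 0 and 1 within KO (6 of 8), 0 and 1 for old KO against WT, 0 and 1 for genotype by age and 0 and 1 with stimulation. The 4 were Mrpl42, Mrpl44, Mrpl53 and Mrps22 without young fresh KO replicate 4. Without old WT replicate 1 Mrps22 passed in 4 comparisons and Mrpl24 within WT, and without old WT replicate 2 Mrpl13 passed with age.

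The ratio of small to large subunit sums was 0.516 in stimulated KO, 0.503 in stimulated WT, 0.415 in old KO, 0.513 in old WT and 0.466 in young fresh WT. Placed by structure it was 0.473, 0.452, 0.378, 0.438 and 0.392 in the same groups. Without the most abundant member of each subunit it was 0.485 (0.4845) in stimulated KO, 0.408 (0.4075) in old KO, 0.492 in old WT and 0.433 in young fresh WT, and with members of at least 1000 counts 0.5004 in stimulated KO. Single libraries gave 0.509 and 0.524 in stimulated KO, 0.480 and 0.526 in stimulated WT, 0.410 and 0.420 in old KO, 0.4996 and 0.527 in old WT, 0.387 and 0.557 in young fresh KO and 0.452 and 0.480 in young fresh WT. Scaled by library totals, an alternative added after seeing the data, the members summed to 5006 CPM in stimulated KO, 5210 in stimulated WT and 3921 in old WT, beside 4477, 4830 and 4404 CPM with TMM.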
